A study of Mus musculus with 16 samples.

Results

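The 58 genes described here belong to the Wnt pathway of mouse brain: 10 Wnt ligands, 2 genes for their secretion, 12 receptors, 3 R-spondin agonists, 2 secreted inhibitors, 9 cytoplasmic transducers, 9 nuclear effectors and 11 targets or feedback genes of beta-catenin. They were chosen by gene symbol, and all 58 were found among the 39179 genes of the deposited tables. A filter on low counts left 57 of them among 18074 genes tested. Wif1, a secreted Wnt inhibitor, did not pass, with 0.0167 to 0.102 CPM (CPM, the count relative to library size after scaling by the TMM method, as throughout).

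Total RNA of cortical and hippocampal neurons, as the labels call the tissue, was sequenced from adult TERT-AD mice on strain B6.129S6.SvEvTac. The control mice received vehicle and the others tamoxifen, which the series title ties to activation of Tert, the catalytic subunit of telomerase. All 4 groups (cortical control, cortical tamoxifen, hippocampal control, hippocampal tamoxifen) carry the TERT-AD label, so no group shows the pathway without that background. The transgenes, the cells in which a recombinase acts, the age within adulthood, the tamoxifen dose and interval and any method of enriching neurons are not stated in the sources at hand. Each group has 4 libraries. Libraries 1 and 2 of a group were more alike than other pairs of that group, as were libraries 3 and 4. Each such pair was therefore added to 1 sample, A or B, giving 2 samples per group. Per region, values are listed in the order control A, control B, tamoxifen A, tamoxifen B, and p-values reflect no more than the spread of these samples, which may be technical.

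Wnt proteins are lipid-modified by Porcn, carried to the cell surface by Wls, and bind a Frizzled receptor together with Lrp5 or Lrp6. Without ligand, a complex of Axin, Apc, Gsk3 and casein kinase 1 marks beta-catenin (Ctnnb1) for destruction, which Btrc helps to carry out. With ligand, Dishevelled proteins halt that complex, and beta-catenin enters the nucleus and acts with Tcf7, Lef1, Tcf7l1 and Tcf7l2 on targets such as Axin2. R-spondins act through Lgr receptors and keep Rnf43 and Znrf3 from removing Frizzled proteins. In the adult brain the pathway is known for synapse maintenance, neurogenesis in the dentate gyrus and the blood-brain barrier, and TERT has been reported to act with beta-catenin at target genes.

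The samples held 83527470 to 108293362 counts in genes. Tert itself was at 0.546, 1.32, 1.26 and 2.05 CPM in cortex and at 1.29, 3.59, 0.931 and 2.04 CPM in hippocampus, so the tamoxifen and control samples overlapped in both regions. Its log2 fold change (tamoxifen minus control) was 0.83 (SE 0.67, edgeR adjusted p = 0.834) in cortex and -0.72 (SE 0.65, edgeR adjusted p = 1) in hippocampus. The libraries of cortical tamoxifen B stood apart, with 20.1 to 20.7% mitochondrial counts against 29.7 to 32.1% in the other cortical libraries. The neuronal label was not borne out as a pure population: all 6 oligodendrocyte markers and all 6 astrocyte markers exceeded 1 CPM in every sample, and the 6 oligodendrocyte markers summed to 21079 to 81484 CPM against 4648 to 7188 CPM for 6 excitatory neuron markers. In such bulk RNA, fewer cells of a type and less RNA per cell cannot be told apart.

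Compared per kilobase of exon, the highest levels were those of some intracellular genes and of the secreted Dkk3. Other intracellular genes were low, such as Dvl2 at 0.92 and Tcf7l2 at 1.02 CPM per kb. Ctnnb1 led with a mean of 94.5 CPM per kb over the 8 samples, before Apc at 65.4, Gsk3a at 53.3, Dkk3 at 33.1 and Dvl1 at 18.4 CPM per kb. Wnt7b, at 9.98 CPM per kb, was the highest ligand, before Wnt7a at 3.66 and Wnt9a at 1.79 CPM per kb. Among the Frizzled genes Fzd2 was highest at 5.41 CPM per kb, with Fzd6 next at 4.13 and Fzd5 lowest at 0.35. Lgr5, a stem cell marker and R-spondin receptor, was the lowest of the genes tested at 0.0256 CPM per kb. The largest spread between samples was that of Rspo1, whose highest sample was 31.6 times its lowest. The smallest spreads were those of Dvl3 (1.13 times), Bcl9l (1.15 times), Csnk1a1 (1.17 times) and Axin2 (1.19 times).

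Rspo1 had the largest difference between the regions. Taken over both labels, 16 of the 57 genes (28.1%) differed between hippocampus and cortex at an edgeR adjusted p under 0.05, against 18.4% of all genes tested. Of these, 8 were higher in hippocampus (8.42% of all genes were) and 8 lower (9.94% of all genes). At an unadjusted p under 0.05 there were 28 of the 57 genes (49.1%, against 35.1% of all). The median log2 fold change was 0.02 over the 57 genes and 0.00 over all genes. The ligands Wnt9a, Wnt10a and Wnt1, the agonist Rspo1 and the transducers Gsk3a, Gsk3b, Apc and Dvl1 made up the lower set. The higher set held the receptors Fzd9, Fzd8, Lrp5 and Fzd1, the feedback and target genes Nkd2 and Myc, the secretion gene Wls and the transducer Dvl2.

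**Figure D1:**
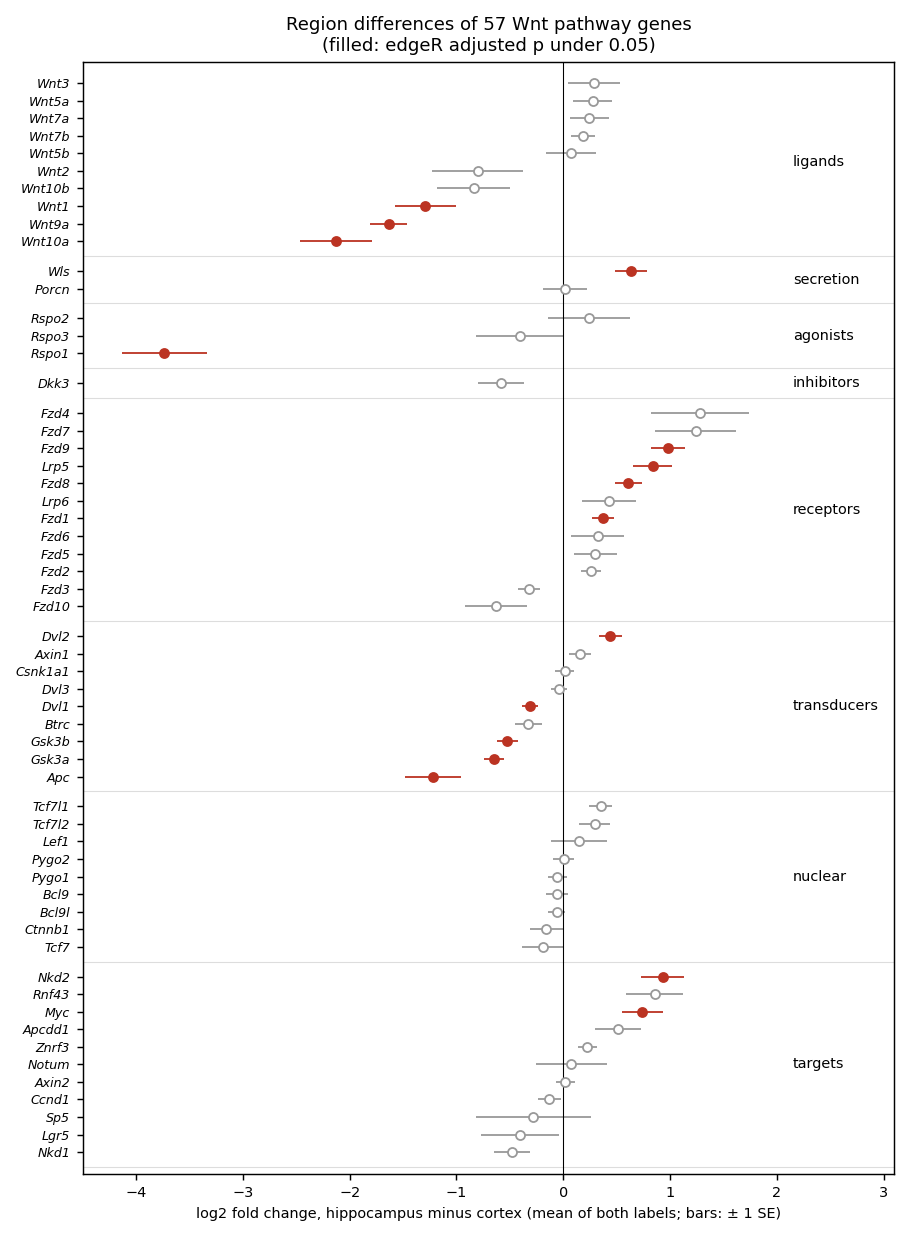
Log2 fold change (hippocampus minus cortex, mean of both labels, x axis, with bars of 1 SE) of the 57 genes tested, grouped by role (y axis); filled red points have an edgeR adjusted p under 0.05. Rspo1 lies farthest from 0 at -3.73, the called ligands and Apc are to the left, and the called receptors are to the right.

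Rspo1 (ENSMUSG00000028871, mm10 chr4:124986430-125009099), an R-spondin that raises Frizzled levels at the cell surface, stood at 23.9, 25.1, 23.3 and 13.9 CPM in cortex and at 1.75, 1.28, 2.60 and 0.792 CPM in hippocampus. Every cortical sample was above every hippocampal one, and the lowest cortical value was that of tamoxifen B. The log2 fold change was -3.73 (SE 0.40, edgeR adjusted p = 0.00477), or 13.3-fold lower in hippocampus. The difference passed in controls alone (-4.02, SE 0.57, edgeR adjusted p = 0.0248) and in tamoxifen samples alone (-3.45, SE 0.55, edgeR adjusted p = 0.0476). The other R-spondins did not pass between regions. Rspo2 had a log2 fold change of 0.24 (SE 0.38) and Rspo3 one of -0.41 (SE 0.41), with edgeR adjusted p of 0.692 and 0.511.

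Wnt9a (ENSMUSG00000000126, mm10 chr11:59306928-59333552), a ligand of the beta-catenin branch, was at 7.38, 8.30, 8.96 and 11.4 CPM in cortex and 2.96, 2.86, 3.48 and 2.20 CPM in hippocampus. The regions did not overlap in any sample. Its log2 fold change was -1.64 (SE 0.17, edgeR adjusted p = 0.00465), and it passed in controls (-1.43, SE 0.25, edgeR adjusted p = 0.0327) and in tamoxifen samples (-1.84, SE 0.25, edgeR adjusted p = 0.0368). Rspo1 and Wnt9a were the only genes of the 57 called in all 8 fits that left out 1 sample each.

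Wnt10a, a further ligand, was at 2.43, 2.34, 1.74 and 4.80 CPM in cortex and 0.477, 0.571, 0.880 and 0.670 CPM in hippocampus. Its log2 fold change was -2.13 (SE 0.34, edgeR adjusted p = 0.0098). The cortical tamoxifen B value is the highest of the 8, and the regions did not overlap. Wnt1, best known for patterning the embryonic midbrain, was close to the detection limit. It had 1.12, 0.718, 0.623 and 0.660 CPM in cortex against 0.234, 0.222, 0.538 and 0.322 CPM in hippocampus, from 26 to 94 counts per sample. The log2 fold change was -1.29 (SE 0.29, edgeR adjusted p = 0.0249). In controls alone Wnt10a (-2.18, SE 0.48) and Wnt1 (-2.00, SE 0.41) also passed, with edgeR adjusted p of 0.0454 and 0.0414.

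The ligands with the highest levels did not pass between regions. Wnt7b, which brain endothelium responds to, was at 42.5, 46.6, 32.4 and 43.2 CPM in cortex and 43.4, 42.2, 54.3 and 47.3 CPM in hippocampus. Wnt7a was at 8.59 to 13.7 CPM in cortex and 9.60 to 17.3 CPM in hippocampus. Wnt5a, a ligand mostly of the branches without beta-catenin, was at 2.05 to 3.20 CPM in cortex and 2.63 to 3.33 CPM in hippocampus. Wnt2, Wnt3, Wnt5b and Wnt10b lay between 0.171 and 2.12 CPM in all samples, and none of them passed. Porcn, which lipidates the ligands, was at 8.31 to 16.04 CPM in cortex and 9.79 to 12.3 CPM in hippocampus.

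**Figure D2:**
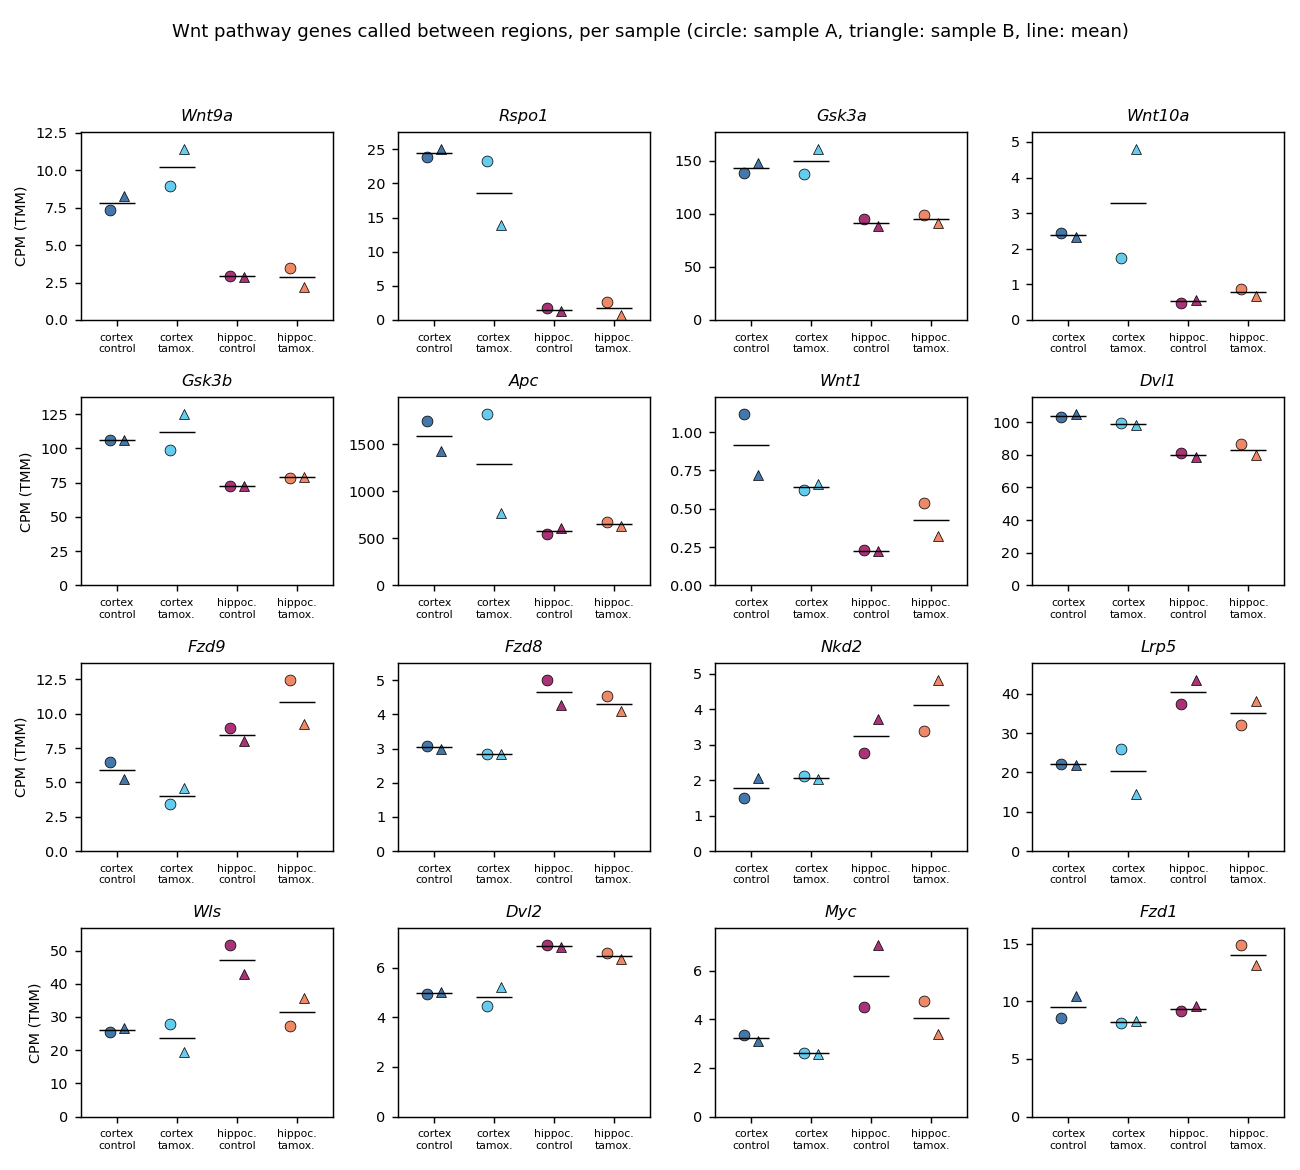
CPM (y axes, linear from 0) of the 16 genes called between regions in the 4 groups (x axes); circles are sample A, triangles sample B and lines the mean of both. Rspo1 sits between 13.9 and 25.1 CPM in cortex and between 0.792 and 2.60 CPM in hippocampus, while Fzd1 and Wls overlap between the regions.

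Axin2 and Sp5, a pair of textbook beta-catenin targets, did not pass between regions, Sp5 with only 15 to 71 counts per sample. Rspo1 and Wnt9a were lower in hippocampus and Fzd9 was higher. Gsk3a, also lower there, has a motif match in its promoter. The promoters below are the 250 bases before the start of these genes. They come from RefSeq on GRCm38.p6, each on its gene's strand: Rspo1 chr4:124986180-124986429 (+), Wnt9a chr11:59306680-59306929 (+), Fzd9 chr5:135251048-135251297 (-), Gsk3a chr7:25237852-25238101 (-), Axin2 chr11:108920099-108920348 (+) and Sp5 chr2:70474673-70474922 (+). Capitals mark matches to the TCF/LEF motifs AACAAAG (in 5.85% of all promoters), ATCAAAG (3.73%), TACAAAG (3.63%) and TTCAAAG (5.14%) on either strand, which do not overlap here.
Rspo1: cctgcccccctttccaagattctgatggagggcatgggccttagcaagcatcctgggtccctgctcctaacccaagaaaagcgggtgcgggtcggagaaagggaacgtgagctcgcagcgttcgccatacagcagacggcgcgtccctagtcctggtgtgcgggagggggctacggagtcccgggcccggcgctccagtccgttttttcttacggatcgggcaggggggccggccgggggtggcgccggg
Wnt9a: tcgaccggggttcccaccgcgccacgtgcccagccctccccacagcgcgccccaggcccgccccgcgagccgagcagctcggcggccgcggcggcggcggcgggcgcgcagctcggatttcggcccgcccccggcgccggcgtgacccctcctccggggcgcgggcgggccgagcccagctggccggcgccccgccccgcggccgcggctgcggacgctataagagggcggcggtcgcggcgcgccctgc
Fzd9: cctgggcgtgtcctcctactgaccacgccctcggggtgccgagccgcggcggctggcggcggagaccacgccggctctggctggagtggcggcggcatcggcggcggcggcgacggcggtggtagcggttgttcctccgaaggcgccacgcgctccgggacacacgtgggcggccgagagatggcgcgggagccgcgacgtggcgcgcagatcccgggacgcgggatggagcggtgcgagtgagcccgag
Gsk3a: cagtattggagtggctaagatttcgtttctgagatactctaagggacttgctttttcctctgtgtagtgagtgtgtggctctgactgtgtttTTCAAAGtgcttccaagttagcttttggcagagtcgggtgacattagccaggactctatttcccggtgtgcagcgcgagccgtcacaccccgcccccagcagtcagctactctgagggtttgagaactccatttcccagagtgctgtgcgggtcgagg
Axin2: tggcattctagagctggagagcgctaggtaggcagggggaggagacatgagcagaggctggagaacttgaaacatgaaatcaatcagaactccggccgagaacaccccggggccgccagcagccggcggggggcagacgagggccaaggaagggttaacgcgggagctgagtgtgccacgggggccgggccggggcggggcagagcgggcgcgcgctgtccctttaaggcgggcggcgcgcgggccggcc
Sp5: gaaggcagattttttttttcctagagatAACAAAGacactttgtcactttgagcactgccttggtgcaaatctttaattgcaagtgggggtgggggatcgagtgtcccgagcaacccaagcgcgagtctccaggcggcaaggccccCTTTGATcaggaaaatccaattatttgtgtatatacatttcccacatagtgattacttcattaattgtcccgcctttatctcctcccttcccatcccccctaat
Sp5 holds AACAAAG from base -222 and CTTTGAT from base -104, counted back from the start, and Gsk3a holds TTCAAAG from base -158. In windows of 300 bases, which add the first 50 after the start, 7 of the 45 listed promoters of 34 of the 58 genes (15.6%) held a match, against 16.9% of 32851 promoters of all genes. The windows of Rspo1, Wnt9a, Fzd9 and Axin2 hold none of these letters, which says nothing of binding elsewhere or of other motifs.

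Of the 12 receptor genes, 10 had a higher value in hippocampus (50.1% of all genes did), with a median log2 fold change of 0.40, and 4 were called higher, against 8.42% of all genes. Fzd9 (mm10 chr5:135248938-135251230), a Frizzled receptor known from hippocampal progenitors, was at 6.50, 5.25, 3.42 and 4.62 CPM in cortex and 8.98, 7.99, 12.5 and 9.24 CPM in hippocampus. All hippocampal samples were above all cortical ones, and the log2 fold change was 0.98 (SE 0.16, edgeR adjusted p = 0.0105). Between tamoxifen samples alone it also passed (1.43, SE 0.23, edgeR adjusted p = 0.0447). Fzd8 was at 2.83 to 3.07 CPM in cortex and 4.09 to 5.01 CPM in hippocampus (log2 fold change 0.61, SE 0.12, edgeR adjusted p = 0.0194). The co-receptor gene Lrp5 was at 22.2, 21.9, 26.0 and 14.6 CPM in cortex against 37.5, 43.6, 32.2 and 38.1 CPM in hippocampus (log2 fold change 0.84, SE 0.18, edgeR adjusted p = 0.0245). Neither gene overlapped between regions.

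Fzd1 passed narrowly (log2 fold change 0.37, SE 0.10, edgeR adjusted p = 0.0463) and its values overlapped, with 8.58, 10.5, 8.13 and 8.32 CPM in cortex and 9.12, 9.57, 14.8 and 13.1 CPM in hippocampus. The high hippocampal values were those of the tamoxifen samples. Wls, the carrier of Wnt proteins, was at 25.6, 26.6, 27.7 and 19.6 CPM in cortex and 51.5, 43.0, 27.3 and 35.6 CPM in hippocampus, with hippocampal tamoxifen A inside the cortical range. Its log2 fold change was 0.64 (SE 0.15, edgeR adjusted p = 0.029).

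Fzd4, the receptor of norrin in vessels, and Fzd7 had larger differences than Fzd9 without passing. Fzd4 was at 8.12, 6.38, 14.3 and 3.93 CPM in cortex and 29.2, 21.8, 9.05 and 21.5 CPM in hippocampus (log2 fold change 1.28, SE 0.46, edgeR adjusted p = 0.102). Fzd7 was at 8.07, 5.83, 13.1 and 4.51 CPM in cortex and 26.3, 20.9, 9.54 and 19.4 CPM in hippocampus (log2 fold change 1.24, SE 0.38, edgeR adjusted p = 0.0655). In both genes hippocampal tamoxifen A fell below cortical tamoxifen A.

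These samples also differed in markers of the choroid plexus, the secretory epithelium of the ventricles. The 6 markers, led by Ttr, summed to 1079, 7.07, 6082 and 4.73 CPM in cortex and 14980, 7391, 42.0 and 7629 CPM in hippocampus. The defining marker Kcnj13 was listed at 0 in cortical control B and at 0.0088 CPM in cortical tamoxifen B. Fzd4, Fzd7, Rnf43, Lrp6 and Wls, chosen after their values were seen, were highest in the 3 hippocampal samples rich in these markers. Rnf43, which removes Frizzled proteins, was at 2.57, 1.49, 3.36 and 2.62 CPM in cortex and 5.71, 5.32, 2.48 and 4.74 CPM in hippocampus. The co-receptor gene Lrp6 was at 42.3, 37.1, 56.9 and 28.5 CPM in cortex and 65.8, 63.1, 35.0 and 59.9 CPM in hippocampus. The part of choroid plexus RNA in these differences was not tested.

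**Figure D3:**
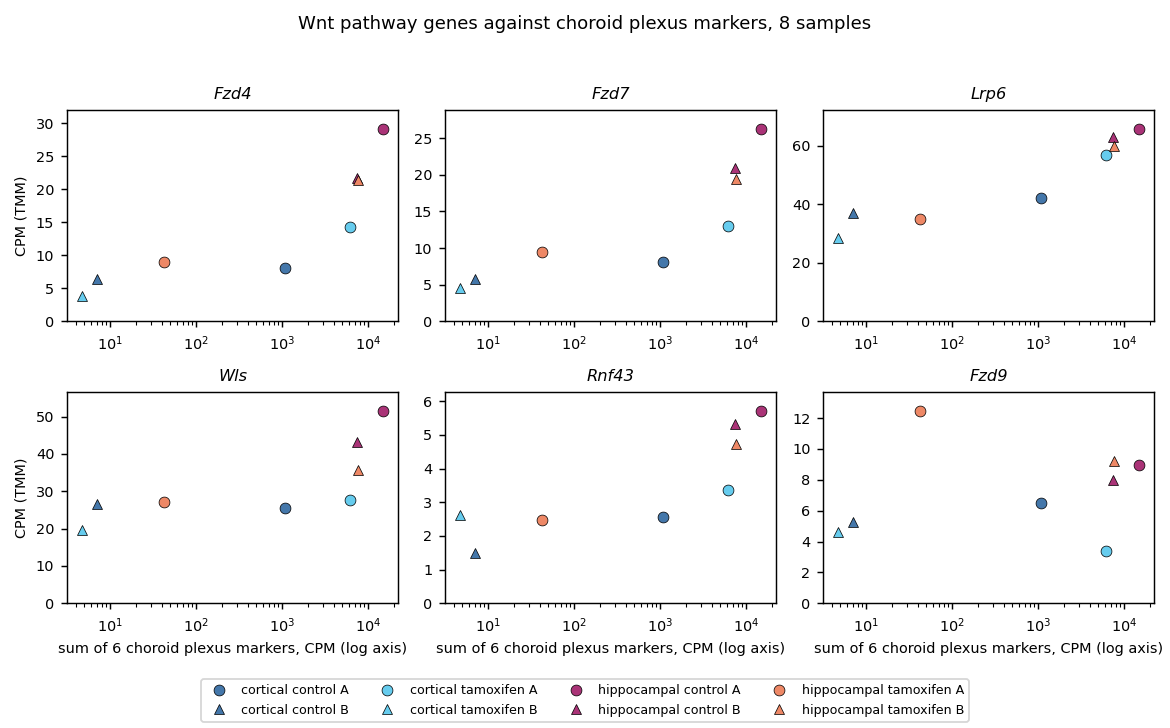
CPM of 6 genes (y axes, linear from 0) against the summed CPM of 6 choroid plexus markers (x axes, log scale) in the 8 samples; colours mark the groups, circles sample A and triangles sample B. Fzd4, Fzd7, Lrp6, Wls and Rnf43 are highest in the 3 hippocampal samples with 7391 to 14980 CPM of markers, whereas Fzd9 is highest, at 12.5 CPM, in the hippocampal sample with 42.0 CPM of markers.

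In the destruction complex, the scaffold gene Apc was at 1753, 1430, 1818 and 767 CPM in cortex and 543, 613, 670 and 634 CPM in hippocampus. The regions did not overlap, but cortical tamoxifen B lay closer to the hippocampal samples than to the other cortical ones. The log2 fold change was -1.22 (SE 0.26, edgeR adjusted p = 0.023). The 6 oligodendrocyte markers, whose cells also express Apc, summed to 61474, 63022, 81484 and 21079 CPM in cortex and 40156, 66942, 41117 and 60310 CPM in hippocampus. That sum, led by Mbp and Mobp, was thus lowest in cortical tamoxifen B as well, while hippocampal control B lay inside the range of the other cortical samples. Mog (27.2 CPM in that sample, 21.9 to 32.0 CPM in the other cortical ones) and Mag (88.1 CPM, against 69.3 to 99.7 CPM) were not lowest there. Its part in the Apc difference was not tested.

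Both Gsk3 genes, for kinases that phosphorylate beta-catenin, were lower in hippocampus. Gsk3a was at 139, 148, 138 and 161 CPM in cortex and 95.2, 88.4, 98.7 and 91.1 CPM in hippocampus (log2 fold change -0.65, SE 0.09, edgeR adjusted p = 0.00794), and it also passed in controls alone (-0.64, SE 0.13, edgeR adjusted p = 0.0403). Gsk3b was at 106, 106, 99.2 and 125 CPM in cortex and 72.8, 72.8, 78.5 and 79.5 CPM in hippocampus (log2 fold change -0.52, SE 0.10, edgeR adjusted p = 0.0144). Neither overlapped between regions. Dvl1, the highest Dishevelled gene, was at 98.1 to 105 CPM in cortex and 78.9 to 86.6 CPM in hippocampus (log2 fold change -0.31, SE 0.08, edgeR adjusted p = 0.0322). Dvl2 went the other way, from 4.43 to 5.24 CPM in cortex to 6.35 to 6.89 CPM in hippocampus (log2 fold change 0.44, SE 0.10, edgeR adjusted p = 0.03). Csnk1a1, whose casein kinase also phosphorylates beta-catenin, was at 93.3 to 109 CPM in cortex and 96.96 to 108 CPM in hippocampus (log2 fold change 0.01, SE 0.09, edgeR adjusted p = 0.937). Dvl3, Axin1 and Btrc did not pass.

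Scaling bears on the small differences. With libraries scaled to the sum of gene counts alone, the median log2 fold change of all genes moved by 0.26, and 22 of the 57 genes were called, 18 higher and 4 lower, of which 12 were shared with the 16. Over all genes the split moved from 1521 higher and 1797 lower to 3108 higher and 544 lower. Gsk3a (edgeR adjusted p = 0.134), Gsk3b (0.299), Dvl1 (0.837) and Wnt1 (0.0614) no longer passed, and all 4 kept a negative sign. Their log2 fold changes moved to -0.39 for Gsk3a, -0.27 for Gsk3b, -0.05 for Dvl1 and -1.03 for Wnt1. Exons of 16 of the 58 genes overlap genes on the opposite strand, whose reads cannot be told apart without a known strand setting. Among them are Gsk3a, Dvl1 and Dvl2 (overlapping 9130221H12Rik, Tas1r3 and Acadvl). Axin2, Ctnnb1, Lef1 and Wnt7b (overlapping Gm11670, Ulk4, Gm43352 and AU022754) are also among them.

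The nuclear effectors showed no called difference between regions, with a median log2 fold change of -0.06 over 9 genes. Ctnnb1 was at 530, 524, 603 and 369 CPM in cortex and 441, 452, 456 and 466 CPM in hippocampus (log2 fold change -0.16, SE 0.16, edgeR adjusted p = 0.514). Lef1 was at 14.4, 11.8, 16.3 and 6.54 CPM in cortex and 13.3, 14.4, 12.9 and 13.6 CPM in hippocampus (0.15, SE 0.26, edgeR adjusted p = 0.724). Tcf7l2, strongly expressed in thalamus, was at 9.02, 9.32, 8.23 and 5.54 CPM in cortex and 9.41, 9.27, 11.2 and 9.07 CPM in hippocampus (0.29, SE 0.15, edgeR adjusted p = 0.198). For all 3 genes cortical tamoxifen B was the lowest sample. Without that sample the log2 fold change of Lef1 was -0.11, and that of Ctnnb1 was -0.31 and passed, as 1 of its 8 leave-out fits. Lef1 and Tcf7l2 each passed instead without cortical tamoxifen A, at 0.55 and 0.45.

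Axin2, the usual readout of beta-catenin activity, was nearly level under TMM scaling. It stood at 18.0, 19.5, 18.6 and 16.4 CPM in cortex and 17.6, 19.0, 17.4 and 19.5 CPM in hippocampus, and the groups overlapped. The log2 fold change between regions was 0.02 (SE 0.09, edgeR adjusted p = 0.896). The TMM scaling factors were 0.866, 0.839, 0.826 and 1.14 in cortex and 1.14, 1.08, 1.11 and 1.06 in hippocampus. With libraries scaled to the sum of gene counts alone, the median of all genes moved by 0.26. With RLE size factors in place of TMM, that median moved by only 0.004. The likeness of the regions in Axin2 is thus stated under TMM scaling, and its own value under the other scalings is not given here. Other targets diverged. Nkd2, a Dishevelled-binding feedback inhibitor, was higher in hippocampus, at 2.77, 3.71, 3.39 and 4.82 CPM against 1.48, 2.07, 2.10 and 2.02 CPM (log2 fold change 0.93, SE 0.20, edgeR adjusted p = 0.0233). Its paralogue Nkd1 had a log2 fold change of -0.48 without passing, at 41.1, 37.0, 41.5 and 24.2 CPM in cortex and 24.0 to 27.0 CPM in hippocampus. Myc, a growth regulator with many inputs, was at 3.36, 3.13, 2.61 and 2.59 CPM in cortex and 4.50, 7.04, 4.76 and 3.38 CPM in hippocampus (log2 fold change 0.74, SE 0.19, edgeR adjusted p = 0.0379). Its regions did not overlap, but cortical control A and hippocampal tamoxifen B differed by little.

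Ccnd1, Znrf3, Sp5, Lgr5, Rnf43, Notum and Apcdd1 did not pass between regions. Apcdd1, an inhibitor made by brain endothelium, was at 33.3, 26.7, 28.1 and 14.5 CPM in cortex and 32.4, 41.3, 34.3 and 36.2 CPM in hippocampus. Notum, which strips the lipid from Wnt proteins, was at 2.99, 3.03, 3.12 and 1.08 CPM in cortex and 2.20 to 3.34 CPM in hippocampus. Of the 57 genes, 21 were lowest and 16 highest in cortical tamoxifen B, the sample that stood apart. Such counts over all genes are not given here, so these numbers do not show a trait particular to the Wnt genes. Among the 21 lowest were Lef1, Apcdd1, Fzd6, Tcf7 and Notum, named here after their values were seen. That sample also had the lowest sum of 6 endothelial markers, 299 CPM against 465 to 658 CPM in the other 7 samples, of 6 mural cell markers, 187 CPM against 277 to 425 CPM, and of the oligodendrocyte markers. The part of these cells' RNA in these values was not tested. The secreted protein Dkk3, named for its likeness to Wnt inhibitors, was instead highest in that sample, at 205 CPM, where the remaining cortical samples had 96.99 to 121 CPM and the hippocampal samples 78.8 to 102 CPM.

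**Figure D4:**
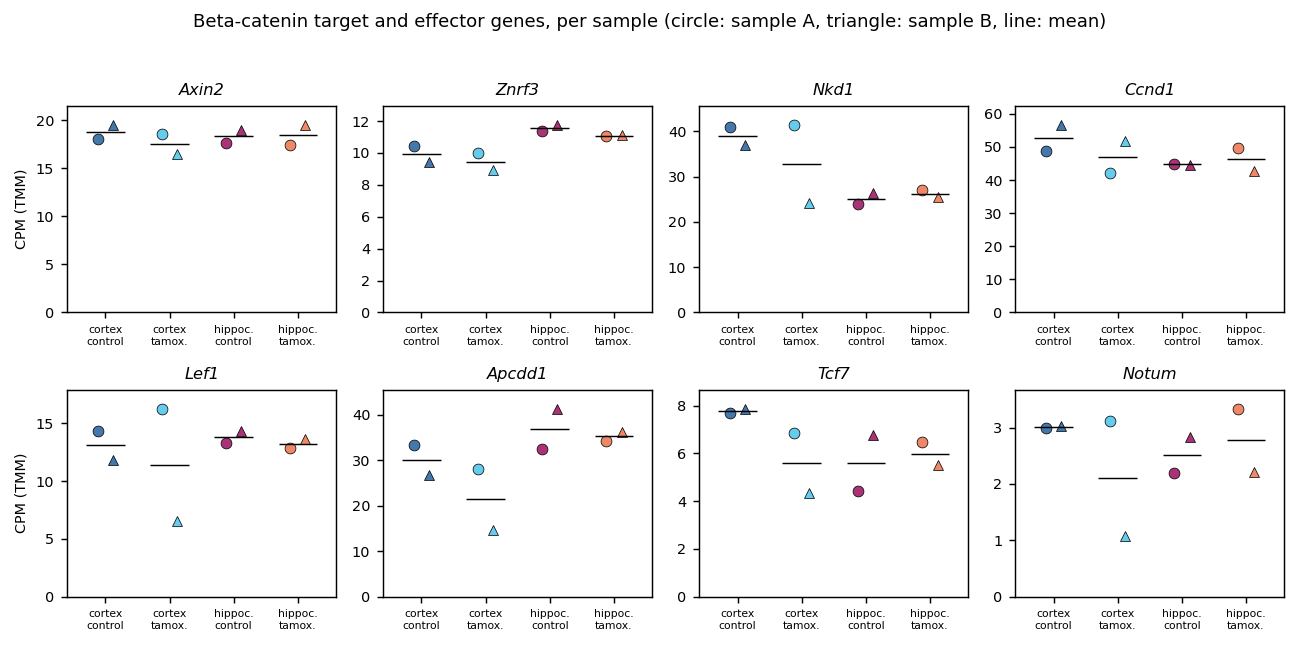
CPM (y axes, linear from 0) of 8 target and effector genes of beta-catenin in the 4 groups (x axes); circles are sample A, triangles sample B and lines the mean of both. Axin2 stays between 16.4 and 19.5 CPM, while Lef1, Apcdd1, Tcf7 and Notum are lowest in cortical tamoxifen B.

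No gene of the 57 was called between tamoxifen and control samples in cortex, in hippocampus, in the mean of both regions or in the difference of the effects between regions (edgeR, DESeq2 and limma voom). Over all genes, edgeR called 0% in cortex, 0% in hippocampus, 0.0111% in the mean and 0% in the difference. At an unadjusted p under 0.05, edgeR found 7 of the 57 genes in cortex (12.3%, against 4.97% of all genes), 2 in hippocampus (3.51%, against 3.61%), 4 in the mean (7.02%, against 3.62%) and 5 in the difference (8.77%, against 5.43%). The study's title concerns Tert activation, so this is the comparison it names, and for the Wnt genes it had 2 samples against 2 in each region. With 16 libraries counted separately, which treats the closely alike neighbouring libraries as independent, 1 to 3 of the 57 genes were called in these comparisons. Over all genes that fit called 562 in cortex, 318 in hippocampus, 133 in the mean and 867 in the difference. Without cortical tamoxifen A, which leaves only the sample that stood apart, 14 were called in cortex, 5 higher and 9 lower, and 2014 genes over the whole table, a number equal to 11.1% of the genes tested in the full fit.

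Axin2 had a log2 fold change (tamoxifen minus control) of -0.10 (SE 0.13) in cortex and 0.01 (SE 0.13) in hippocampus, with edgeR adjusted p of 0.869 and 1. Ctnnb1 had -0.12 (SE 0.22) and 0.05 (SE 0.22), Lef1 -0.20 (SE 0.37) and -0.06 (SE 0.37), and Tcf7l2 -0.42 (SE 0.21) and 0.12 (SE 0.21). In cortex the values of Ctnnb1 and Lef1 turned to 0.19 and 0.31 without cortical tamoxifen B, and that of Tcf7l2 to -0.16. Without cortical tamoxifen A they were -0.52 for Ctnnb1, -1.005 for Lef1 and -0.73 for Tcf7l2. All 11 target genes failed the test in both regions, with median log2 fold changes of -0.17 in cortex and -0.06 in hippocampus. Over all genes the medians were 0.04 and -0.01.

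In cortex the smallest p-values belonged to Wnt2, Fzd2, Rspo2, Lgr5 and Fzd10, all with an edgeR adjusted p of 0.83. Wnt2, a ligand, was at 0.332 and 0.268 CPM in controls and 0.594 and 2.12 CPM with tamoxifen (log2 fold change 2.18, SE 0.62). Rspo2 was at 0.724 and 0.887 CPM in controls and 1.25 and 4.61 CPM with tamoxifen (1.87, SE 0.56). Lgr5 was at 0.178 and 0.169 CPM in controls and 0.261 and 0.642 CPM with tamoxifen (1.39, SE 0.52). In these genes the groups did not overlap, but the high value was that of cortical tamoxifen B. Without it the log2 fold changes were 0.98 for Wnt2, 0.63 for Rspo2 and 0.58 for Lgr5. That sample also had the most excitatory neuron marker Slc17a7, 952 CPM where the other cortical samples had 510 to 528 CPM. Its sum of the 6 excitatory markers, however, was 7051 CPM against 6508 to 7188 CPM in those samples, and its Camk2a was 5860 CPM against 5892 to 6544 CPM. The part of cell makeup in these values was not tested.

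The receptor gene Fzd2 was lower with tamoxifen in cortex, at 14.0 and 16.1 CPM against 20.1 and 21.6 CPM in controls (log2 fold change -0.47, SE 0.13), without passing. Fzd10 was at 0.536 and 1.23 CPM against 1.77 and 1.93 CPM (-1.05, SE 0.41). In hippocampus, Fzd1 had the smallest p, at 14.8 and 13.1 CPM with tamoxifen against 9.12 and 9.57 CPM in controls (0.58, SE 0.14, edgeR adjusted p = 1). It was followed by Wls (-0.59, SE 0.21), Wnt1 (0.91, SE 0.41), Myc (-0.50, SE 0.27) and Fzd10 (0.68, SE 0.41), none of which passed. In the mean of both regions the leading genes were Rspo2 (1.24, SE 0.39), Wnt2 (1.23, SE 0.43), Fzd2 (-0.24, SE 0.09), Wls (-0.36, SE 0.15) and Myc (-0.41, SE 0.19), each with an edgeR adjusted p of 0.961.

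For the difference of the effects, hippocampus minus cortex, the smallest p-values of the 57 genes belonged to Fzd1, Fzd10, Fzd9, Wnt1 and Fzd2. Fzd1 had 0.79 (SE 0.20), Fzd10 1.73 (SE 0.58), Fzd9 0.90 (SE 0.32), Wnt1 1.43 (SE 0.57) and Fzd2 0.46 (SE 0.19), each with an edgeR adjusted p of 0.889. Of the 12 receptor genes 5 had a positive difference and 7 a negative one, with -1.07 for Fzd4 and -1.04 for Fzd7. Fzd9, for one, was lower with tamoxifen in both cortical samples and higher in both hippocampal samples, without overlap. The tamoxifen samples were above the controls without overlap for 6 genes in cortex (10.5%, against 16.2% of all genes) and 16 in hippocampus (28.1%, against 21%). They were below for 15 in cortex (26.3%, against 15%) and 13 in hippocampus (22.8%, against 18.9%). Only Fzd3 and Rspo2 were above in both regions (3.51%, against 2.98% of all genes), and none was below in both (2.05% of all genes were).

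**Figure D5:**
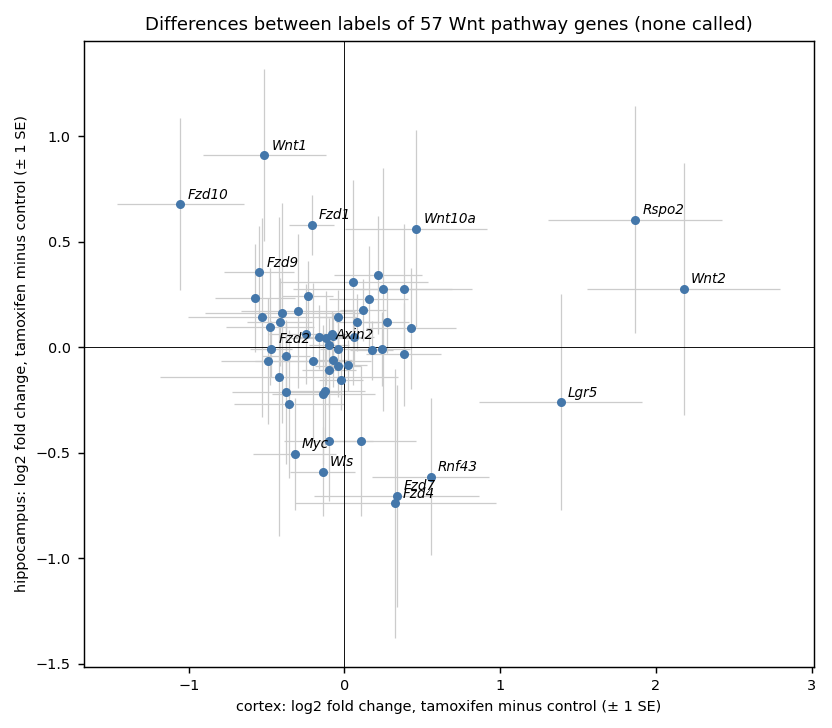
Log2 fold change (tamoxifen minus control) of the 57 genes in cortex (x axis) and hippocampus (y axis), with bars of 1 SE; a selection is labelled. No gene was called, Axin2 lies near 0 on both axes, and Wnt2, Rspo2 and Lgr5 extend to the right at 2.18, 1.87 and 1.39.

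Of 73 further genes of the pathway (other ligands, receptors, inhibitors, transducers, co-repressors, planar polarity genes and targets), 71 were in the files and 64 were tested. Between regions, 14 of the 64 were called (21.9%, against 18.4% of all genes), 6 higher and 8 lower in hippocampus. Lgr4, a receptor of R-spondins, was higher, at 30.3, 27.7, 30.6 and 29.8 CPM against 24.4, 22.8, 17.1 and 16.7 CPM in cortex (log2 fold change 0.57, SE 0.08, edgeR adjusted p = 0.00794). The co-repressor gene Tle3 (log2 fold change 0.49), the planar polarity gene Celsr1 (0.51), the Dishevelled-binding Dact1 (0.86) and the norrin gene Ndp (0.40) were also higher, as was Cd44.

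The lower genes of that list were led by Dact3, a relative of Dact1, at 316, 297, 377 and 322 CPM in hippocampus against 495, 564, 497 and 466 CPM in cortex (log2 fold change -0.63, SE 0.10, edgeR adjusted p = 0.0107). Apc2, the neuronal relative of Apc, was at 108 to 140 CPM against 164 to 260 CPM (-0.94, SE 0.16, edgeR adjusted p = 0.0116). Csnk1g2 (log2 fold change -0.49), Ctbp1 (-0.48) and the ligand Wnt4 (-0.97) also passed, followed by Ccnd2, Tnfrsf19 and Kremen2. Wnt3a, the ligand used to drive hippocampal progenitors in culture, was at 0 to 0.0435 CPM and was not tested. Between tamoxifen and control none of the 64 was called by edgeR, with 8 at an unadjusted p under 0.05 in cortex (12.5%, against 4.97% of all genes) and 4 in hippocampus (6.25%, against 3.61%).

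In controls alone, 5 of the 57 genes were called between regions (8.77%, against 6.19% of all genes), namely Rspo1, Wnt9a, Gsk3a, Wnt1 and Wnt10a, all lower in hippocampus (3.48% of all genes were called lower and 2.71% higher). At an unadjusted p under 0.05 there were 20 (35.1%, against 27.6%). In tamoxifen samples alone, 3 were called (5.26%, against 1.12% of all genes), Wnt9a and Rspo1 lower and Fzd9 higher. Since no difference of the effects was called, these counts do not show that the regional pattern changed with tamoxifen. Without overlap over all 8 samples, 8 genes were higher in hippocampus (14%, against 11.8% of all genes) and 11 lower (19.3%, against 15.2%). The lower ones included Fzd3, Btrc and Wnt10b, and the higher ones Tcf7l1 and Znrf3, none of which passed the test. The counts rest on few samples. Leaving out 1 sample, which leaves 1 in its group, changed the number of the 57 genes called in the mean of both labels. The number called over all genes changed with it. Both were lowest without cortical control B and highest without cortical tamoxifen A.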

How the data were processed

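Per the submitters' processing notes, the authors aligned reads with STAR and counted them with HTSeq on mm10; no source at hand states versions, annotation release or strand setting. The deposited count is whole reads per gene, and the deposited RPKM, per the file headers, entered no test (99.997% of values were recomputed from count and length). Counts given to no gene (35.5 to 42.5% of each of 16 libraries) were left out, leaving 33236178 to 57195203 per library.

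Neighbouring libraries differed by 2.60 to 2.80 times the Poisson variance at 20 to 200 counts (8 pairs), other pairs of a group by 3.66 to 13.4 times (16 pairs). At over 2000 counts the ranges were 3.14 to 8.73 and 13.5 to 463 times. In cortical control the gap at 20 to 200 counts was small, with 2.67 and 2.73 against 3.66 to 3.84 times. Neighbours were added in all groups. Whether they share an animal is not labelled. All 4 groups were fitted together in edgeR 4.0.16 (R 4.3.3; filterByExpr, TMM, robust quasi-likelihood test, Benjamini-Hochberg over 18074 genes, threshold 0.05). SE is the log2 fold change over the square root of F. The code was tested on simulated data. Alternatives used DESeq2 1.42.0 and limma 3.58.1.

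Genes given with full statistics are those called, up to 10 per direction, or else the 5 of smallest p; Wnt3a, Lef1, Tcf7l2, Axin2 and Ctnnb1 are always given, and up to 5 called genes per direction come from the list of further genes. The genes and lists were chosen with earlier results of these data known. Of the marker lists, the summed ranges over the 8 samples not given in the report were 58.9 to 215 CPM for inhibitory neurons, 32.6 to 63.8 for dentate granule cells, 45.0 to 107 for hippocampal pyramidal cells, 28.8 to 67.1 for thalamic and 56.3 to 322 for striatal neurons, 1041 to 2358 for astrocytes, 101 to 299 for oligodendrocyte precursors, 680 to 1909 for microglia, 187 to 425 for mural cells, 9.21 to 28.6 for meningeal fibroblasts and 4.27 to 22.2 for Cajal-Retzius cells.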

Additional observations from a re-analysis of the deposited data

How the results depend on the processing

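Counts below are of the 57 Wnt genes called by tamoxifen or region. Sample letters were tried as a replicate block, although the pairing check found correlations of -0.405 to 0.283 between the A minus B differences of the groups, so the letters do not pair the samples. With the replicate block, 1 gene was called between regions in controls (5 without it), 0 in tamoxifen samples (3 without it) and 11 in the mean of both labels (16 without it), and none by tamoxifen. A crossed block, added after seeing the data, gave 9, 1 and 19. Counting 16 libraries separately gave 3 (cortex), 2 (hippocampus), 1 (mean) and 3 (difference) genes by tamoxifen, and 24, 27 and 33 between regions in controls, tamoxifen samples and the mean. Between regions in controls and in tamoxifen samples, scaling to the sum of gene counts gave 11 and 0, DESeq2 17 and 12, and limma voom 13 and 16. RLE factors gave 1 in tamoxifen samples. Leaving out cortical tamoxifen B and hippocampal tamoxifen A together, added after seeing the data, gave 22 in controls. Leave-one-out fits gave 0 to 14 genes by tamoxifen in cortex, 0 to 5 in the mean of both regions and 0 in hippocampus and the difference. Between regions they gave 0 to 18 in controls, 0 to 21 in tamoxifen samples and 2 to 31 in the mean; each highest count came without cortical tamoxifen A, and in controls 18 were also called without cortical tamoxifen B. The cause was not tested. No value changed sign while called, and of 1496 recomputed values of named genes 1185 kept direction and side of the threshold, 231 were lost as calls, 36 were gained, and 44 changed sign without a call.

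Over all genes, tamoxifen calls in cortex (0) became 562 with 16 libraries, 25 with limma voom and 8 with DESeq2, and in hippocampus (0) 318, 5 and 8. Leave-one-out fits gave up to 2014 in cortex and 926 in the mean of both regions (2). That mean gave 133 with 16 libraries, 14 with DESeq2 and 4 with limma voom; the difference (0) gave 867, 4 and 119. Region calls in controls (1118) became 6982 with 16 libraries, 3207 with DESeq2, 3536 with limma voom, 2064 with sum scaling, 72 with the replicate block, 2036 crossed and 4783 without both samples; leave-one-out fits gave 0 to 3915. In tamoxifen samples (202) they became 5510, 1946, 2982, 26, 0, 121 and 333 in the same order, 536 without a filter, and 0 to 4092 leave-one-out. In the mean (3318) they became 8481 with 16 libraries, 5214 with limma voom, 2109 with the block, and 369 to 6144 leave-one-out. Depth limits Wnt1 most among the called genes, with 26 to 94 counts per sample.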

Other observations

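From the list of further genes, Sostdc1, Sfrp5 and Ror1 were highest in samples rich in choroid plexus markers, which had 14980 CPM in hippocampal control A and 4.73 CPM in cortical tamoxifen B. Sostdc1, a secreted inhibitor, was at 4.53, 0.0704, 26.9 and 0.044 CPM in cortex and 66.6, 45.5, 0.196 and 40.5 CPM in hippocampus. Sfrp5, a Frizzled-like protein that binds Wnt ligands, was at 2.65, 2.85, 7.17 and 1.48 CPM in cortex and 13.3, 7.01, 1.85 and 6.15 CPM in hippocampus. The receptor gene Ror1 was at 1.01, 0.352, 1.88 and 0.405 CPM in cortex and 4.25, 2.37, 0.863 and 3.08 CPM in hippocampus. The 3 genes were chosen after their values were seen, none was called in any comparison by edgeR, and the part of choroid plexus RNA in them was not tested. Other inhibitors were mixed. Sfrp1, at 31.1 CPM, and Sost, at 0.0586 CPM, were also highest in hippocampal control A. Sfrp2, at 0.494 CPM, and Dkk2, at 0.546 CPM, were highest in hippocampal control B. Frzb, at 5.41 CPM, was highest in cortical tamoxifen B and Sfrp4, at 0.521 CPM, in hippocampal tamoxifen A. Dkk1 and Dkk4, further secreted inhibitors, had 0 CPM in all 8 samples.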
